A study of Mus musculus with 12 samples.

Results

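A group of 4 genes of thyroid hormone action was followed here, out of the 20295 genes in the count table, and they were chosen by name: Dio2, Thra, Thrb and Thrsp. All 4 passed the filter on low counts that left 13543 genes for testing. RNA was sequenced from mature white adipocytes (eWAs) that were floated out of collagenase-digested epididymal fat (lean male C57/BL6J mice) and then cultured in a hydrogel for 2 days, 50000 cells in a well. The 12 libraries form 4 groups of 3, which all share this culture. The vehicle group received DMSO, the ISO group the β-adrenergic agonist isoproterenol for 3 h, the Lip group inhibitors of the lipases ATGL and HSL (Atglistatin and CAY10499 in the methods of the study), and the Lip+ISO group the inhibitors and then ISO for 3 h. Neither the labels nor the methods say how many mice gave the cells of a library, and the age of the mice is not given in the sources used here. The libraries held 22632220 to 43707557 counts. Levels are given in CPM, the counts of a gene scaled to the total of its library, or in RPKM, the same per kilobase of counted length, where genes are compared with each other.

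Thyroid hormone is released mainly as thyroxine, which binds its receptors weakly, and cells turn it into the active triiodothyronine by removing 1 iodine. In brown fat this step is carried out by type 2 deiodinase, the product of Dio2, a selenoenzyme that norepinephrine raises through cAMP. Type 3 deiodinase, from Dio3, inactivates the hormone. Thra and Thrb encode the nuclear receptors of triiodothyronine, which bind DNA with an RXR partner, recruit corepressors without the hormone and coactivators with it. Thrsp (Spot 14) is a classic hormone-responsive gene of fat and liver whose product acts in fatty acid synthesis.

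Dio2 carried the response of the group. ISO raised it 16.9-fold without the inhibitors and 97.1-fold with them, and the level under Lip+ISO was 7.65-fold that under ISO alone. Thra and Thrb fell by 0.60 and 0.70 on the log2 scale under Lip+ISO compared with Lip, and neither passed the test in ISO compared with vehicle. Thrsp passed none of the 5 tests without a replicate block, and passed downward in both ISO comparisons with it. The 5 tests are ISO vs vehicle, Lip+ISO vs Lip, Lip vs vehicle, Lip+ISO vs ISO, and the interaction, which is the log2 response to ISO with the inhibitors minus that without them. A gene "passed" at an adjusted p at or under 0.05 (edgeR quasi-likelihood test, Benjamini-Hochberg over the 13543 genes), and was "called" if its log2 fold change was also at least 1 in size.

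The Dio2 gene lies on chromosome 12, minus strand (mm9 chr12:91962992-91976878 in the table, NM_010050), and 5815 of its bases were counted. The RefSeq start of Dio2 lies 600 bases upstream of the start in the table, at position 91977478 of mm9. The 250 bases before that RefSeq start are shown because they hold a cAMP response element, the sequence that CREB binds, and because Dio2 rose together with cAMP-induced genes under ISO. The window was taken from RefSeq (GRCm38.p6 chr12:90739039-90739288, minus strand) and was found once in mm9, at chr12:91977479-91977728. It is printed with the element in capitals, which lies 95 to 88 bases before the start:
Dio2 promoter: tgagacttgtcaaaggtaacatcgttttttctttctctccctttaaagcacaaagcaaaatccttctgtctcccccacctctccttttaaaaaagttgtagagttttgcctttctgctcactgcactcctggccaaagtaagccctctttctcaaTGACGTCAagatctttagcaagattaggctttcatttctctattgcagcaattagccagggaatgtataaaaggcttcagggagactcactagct
The full element, TGACGTCA, is its own reverse complement, and it occurs in 508 of 32851 RefSeq promoter windows of this length (1.55%) and in 329 of 13068 windows of the genes tested here (2.52%). Among 11 cAMP response genes with a window, 1 held it, Dusp1, a phosphatase of MAP kinases, 143 to 136 bases before its start (GRCm38.p6 chr17:26508597-26508626, minus strand, element in capitals):
Dusp1 window: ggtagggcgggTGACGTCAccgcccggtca
The short form TGACG, searched on both strands and contained in the full element, was in 11 of the 15 windows of those 11 genes (73.3%) and in 25.5% of the windows of the tested genes. It was in 1 of the 2 Thrb windows and not in the Thrsp window. Exact direct repeats of AGGTCA with 4 bases between (DR4, thyroid hormone receptor with RXR) or 1 base between (DR1, PPAR with RXR), searched on both strands, were in none of the windows of Dio2, Thrb and Thrsp, and in 0.0152% and 0.0335% of all windows. Such matches describe letters only. Thra had no entry among the promoter windows, and neither had Crem and Sik1 of the 13 cAMP response genes.

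The coding sequence of Dio2 holds in-frame TGA codons that are annotated as selenocysteine. They are shown because reading TGA as selenocysteine depends on the genes of selenoprotein synthesis, which are among those described. Both codons are given with 12 bases on each side, read on the minus strand of mm9 with TGA in capitals. The stretches lie at chr12:91968251-91968277 and, near the stop codon, at chr12:91967852-91967878:
Dio2 first TGA: ggttcagccaccTGAccacctttcact
Dio2 second TGA: ttcagcaagagaTGAattctagattag
The first encodes the selenocysteine of the active site. Whether the second is read as selenocysteine or as a stop was not tested.

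Dio2 was near the lower end of detection without ISO. The vehicle libraries had 0.663, 0.546 and 0.431 CPM (21, 13 and 11 counts), and the Lip libraries 0.996, 0.612 and 0.637 CPM (29, 19 and 23 counts). These groups overlapped, and the difference (log2 fold change 0.42 ± 0.31 SE, 95% interval -0.25 to 1.08) did not pass the test (adjusted p = 1). Under ISO the libraries had 8.06, 8.55 and 11.8 CPM (183, 378 and 273 counts), all above every library without ISO. Under Lip+ISO they had 69.0, 63.5 and 84.4 CPM (1706, 1714 and 2126 counts), all above every ISO library. The group means were thus 0.546 ± 0.116 (SD, n = 3) in vehicle, 0.748 ± 0.215 in Lip, 9.47 ± 2.04 in ISO and 72.3 ± 10.9 CPM in Lip+ISO. This order is vehicle, Lip, ISO, Lip+ISO, and only the neighbours vehicle and Lip did not differ beyond their spread.

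**Figure D1:**
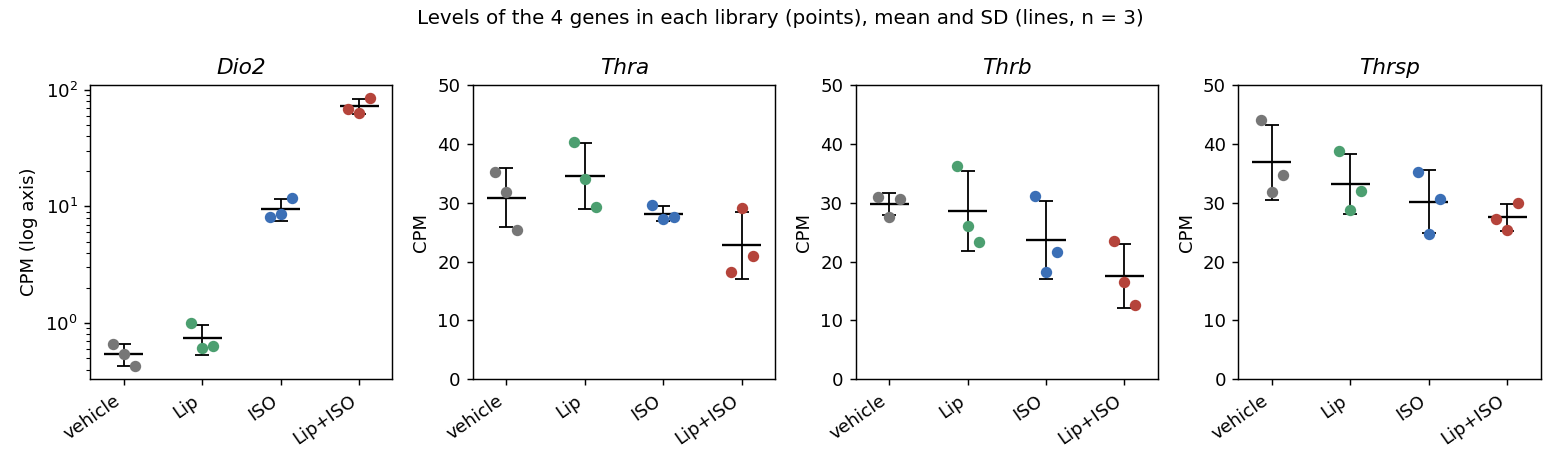
CPM of Dio2 (log axis), Thra, Thrb and Thrsp (linear axes from 0) in each of the 12 libraries (points, n = 3 per group), with the mean and SD of each group as lines. Dio2 lies at 0.431 to 0.996 CPM in the libraries without ISO, at 8.06 to 11.8 in ISO and at 63.5 to 84.4 in Lip+ISO, while the other genes span 12.7 to 44.1 CPM over all groups.

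The log2 fold change of Dio2 was 4.08 ± 0.24 (SE) in ISO vs vehicle (adjusted p = 2.17e-07) and 6.60 ± 0.23 in Lip+ISO vs Lip (adjusted p = 1.3e-09). In Lip+ISO vs ISO it was 2.94 ± 0.18 (adjusted p = 1.25e-06). The interaction was 2.52 ± 0.37 (95% interval 1.73 to 3.31, adjusted p = 0.00392), so the response to ISO was larger in the presence of the inhibitors. Ranked from the highest log2 fold change of the 13543 genes, Dio2 was the gene at place 39 in ISO vs vehicle, 5 in Lip+ISO vs Lip, 5 in Lip+ISO vs ISO and 11 in the interaction. The comparisons share groups (ISO vs vehicle and Lip+ISO vs ISO both use the ISO libraries), so these places are not independent of each other. The interaction lost its call when the 4 libraries with replicate number 2 were left out (2.42, adjusted p = 0.114). The fold changes against vehicle and Lip rest on 11 to 29 counts per library in those groups.

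Dio2 was the only one of the 4 genes called, in ISO vs vehicle, Lip+ISO vs Lip, Lip+ISO vs ISO and the interaction. Of all tested genes, 5.68% were called higher and 1.80% lower in ISO vs vehicle, 4.19% and 3.16% in Lip+ISO vs Lip, 0.790% and 1.20% in Lip+ISO vs ISO, and 0.406% and 0.340% in the interaction. These counts depended on single libraries and replicate numbers. Without the libraries numbered 3 the genes called higher in ISO vs vehicle went from 769 to 431 and those called lower in Lip+ISO vs ISO from 162 to 80. In the interaction the 55 called higher and 46 called lower became 6 and 9 without the libraries numbered 2 and 17 and 17 without those numbered 3, and those called lower became 30 without vehicle replicate 1 or ISO replicate 3 and 73 without vehicle replicate 2. In Lip vs vehicle 0% were called higher and 0.0222% lower (0 and 3 genes by edgeR, 5 and 6 by DESeq2, with 582 genes at an unadjusted p under 0.05), and none of the 4 genes was among them. The 3 lower calls became 0 or 1 without any 1 of the vehicle or Lip libraries or of the replicate numbers.

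**Figure D2:**
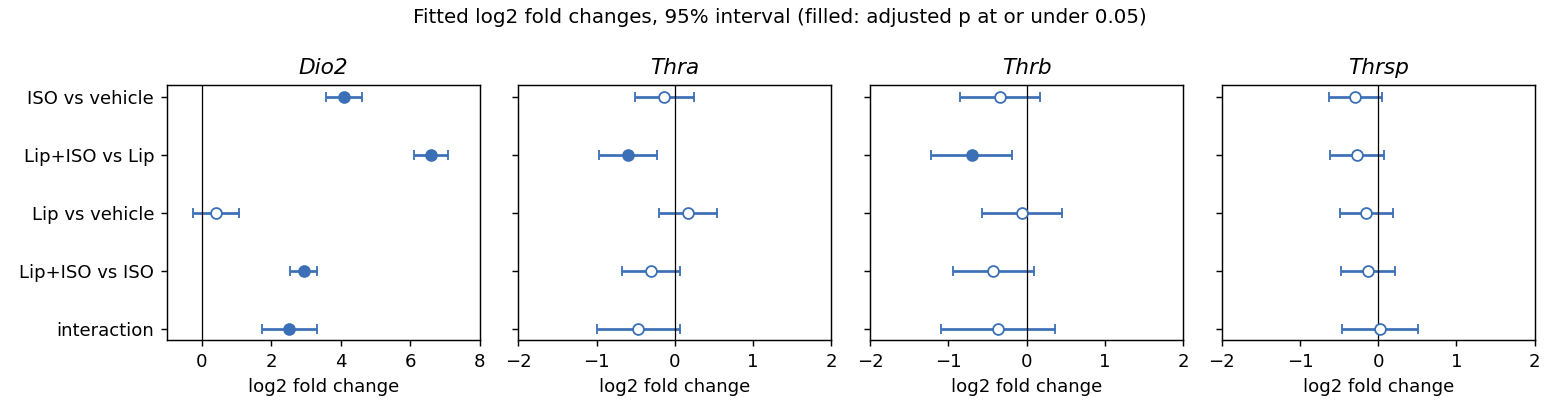
Fitted log2 fold changes with 95% intervals of the 4 genes in the 5 tests. Filled points passed at an adjusted p at or under 0.05. Dio2 is filled in every row but Lip vs vehicle (0.42), Thra and Thrb only in Lip+ISO vs Lip (-0.60 and -0.70), and Thrsp in none.

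The receptor genes moved less, and downward. Thra, on chromosome 11 (mm9 chr11:98603187-98626425, plus strand, NM_178060, 2246 bases counted), encodes receptor α. It had 35.3, 31.9 and 25.4 CPM in vehicle, 29.6, 27.3 and 27.6 in ISO, 40.3, 34.1 and 29.2 in Lip, and 18.2, 29.0 and 20.9 in Lip+ISO. The Lip+ISO libraries thus lay below the Lip libraries, though the highest of the former (29.0) and the lowest of the latter (29.2) nearly met. Thra fell by 0.60 ± 0.17 on the log2 scale in Lip+ISO vs Lip (1.52-fold lower, adjusted p = 0.02). The other differences did not pass, with -0.13 ± 0.17 in ISO vs vehicle (95% interval -0.51 to 0.24, adjusted p = 0.595), 0.16 ± 0.17 in Lip vs vehicle and -0.31 ± 0.17 in Lip+ISO vs ISO (95% interval -0.68 to 0.07, adjusted p = 0.315). The interaction was -0.47 ± 0.24 (adjusted p = 0.434), so the fall with the inhibitors was not shown to differ from the change without them. The fall was not past the threshold without Lip replicate 1 (-0.46, adjusted p = 0.107), Lip+ISO replicate 1 (-0.47, adjusted p = 0.0752) or Lip+ISO replicate 3 (-0.53, adjusted p = 0.0759), nor without all libraries numbered 1 (-0.32, adjusted p = 0.266) or 3 (-0.65, adjusted p = 0.0591).

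The end of Thra faces Nr1d1, the gene of REV-ERBα on the opposite strand. In the table Nr1d1 begins 2820 bp beyond the end of Thra, and the Thra row has the span and length of a transcript (Thra-003 in the annotation of the same assembly) that shares 0 exon bases with Nr1d1. The longer Thra-001, which shares 263 bases with Nr1d1, uses a different last part that the row does not count. Nr1d1 itself had 149.8 to 152.5 CPM in vehicle, 207.3 to 228.7 in ISO, 129.9 to 140.6 in Lip and 67.8 to 79.6 in Lip+ISO. Its level was thus lowest where Thra was lowest, and highest under ISO, where Thra was not. Reads from exons that these transcripts share cannot be assigned to one of them.

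Thrb (mm9 chr14:18493474-18870602, plus strand, NM_001113417, 5997 bases counted) encodes receptor β, from a span of 377129 bp. It had 31.0, 27.7 and 30.6 CPM in vehicle, 31.1, 18.2 and 21.6 in ISO, 36.3, 26.1 and 23.3 in Lip, and 23.5, 16.5 and 12.7 in Lip+ISO. The Lip+ISO libraries were the lowest group, but its replicate 1 (23.5) reached the lowest Lip library (23.3). Thrb fell by 0.70 ± 0.24 on the log2 scale in Lip+ISO vs Lip (1.63-fold lower, adjusted p = 0.0433). In ISO vs vehicle the change was -0.34 ± 0.24 (95% interval -0.85 to 0.17, adjusted p = 0.309), in Lip vs vehicle -0.06 ± 0.23, in Lip+ISO vs ISO -0.42 ± 0.24 (adjusted p = 0.31) and in the interaction -0.36 ± 0.33 (adjusted p = 0.69). Without a replicate block the call in Lip+ISO vs Lip was close to the threshold (adjusted p = 0.00209 with the block). It held in 5 of 15 fits that left out a library or a replicate number, with log2 fold changes between -0.97 (without Lip+ISO replicate 1) and -0.48 (without Lip replicate 1, adjusted p = 0.203). With any 1 of the 3 vehicle libraries, ISO replicate 3, Lip replicate 2, Lip+ISO replicate 2 or Lip+ISO replicate 3 left out, or all libraries numbered 2 or 3, the adjusted p was 0.0545 to 0.169. Without the libraries numbered 1, Thrb passed downward in ISO vs vehicle (-0.55, adjusted p = 0.0431).

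Both receptors thus passed downward in Lip+ISO vs Lip, where 15.8% of all tested genes passed downward and 11.5% upward. In ISO vs vehicle, where 13.9% passed downward and 12.3% upward, neither did. In Lip+ISO vs ISO 4.59% and 4.36% of all genes passed downward and upward, in the interaction 0.724% and 0.901%, and in Lip vs vehicle 0.0443% and 0.00738%, and neither receptor was among them.

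Thrsp (mm9 chr7:104561467-104566020, minus strand, NM_009381, 1038 bases counted) passed no test without a replicate block. It had 44.1, 31.8 and 34.7 CPM in vehicle, 35.3, 24.7 and 30.6 in ISO, 38.8, 28.7 and 32.1 in Lip, and 27.3, 25.4 and 29.9 in Lip+ISO. The groups overlapped in each pair that was compared, but for Lip+ISO and Lip only by the lowest Lip library. Replicate 1 was the highest library in vehicle, ISO and Lip. The log2 fold changes were -0.29 ± 0.16 in ISO vs vehicle (95% interval -0.63 to 0.05, adjusted p = 0.189), -0.27 ± 0.16 in Lip+ISO vs Lip (95% interval -0.61 to 0.07, adjusted p = 0.245), -0.15 ± 0.16 in Lip vs vehicle and -0.13 ± 0.16 in Lip+ISO vs ISO. The interaction was 0.02 ± 0.22 (95% interval -0.46 to 0.51, adjusted p = 0.98). With the replicate number as a block, Thrsp passed downward in ISO vs vehicle (-0.29, adjusted p = 0.0269) and in Lip+ISO vs Lip (-0.26, adjusted p = 0.0493). The intervals leave room for a fall of up to 0.63 on the log2 scale, and a rise over 0.07 lies outside those of both ISO comparisons.

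Per length, the order of the 4 genes changed under ISO. In vehicle, Thrsp had 35.5 ± 6.19 RPKM (SD, n = 3), Thra 13.7 ± 2.23, Thrb 4.96 ± 0.305 and Dio2 0.0940 ± 0.0200, with no overlap between neighbours. In Lip+ISO, Thrsp had 26.5 ± 2.21 RPKM, Dio2 12.4 ± 1.87, Thra 10.1 ± 2.50 and Thrb 2.93 ± 0.916. Dio2 had there risen to the level of Thra, from which it did not differ beyond the spread (10.9 to 14.5 against 8.12 to 12.9 RPKM). The ratio of Dio2 to Thra per length was 0.00655 to 0.00727 in vehicle, 0.00693 to 0.00955 in Lip, 0.105 to 0.166 in ISO and 0.846 to 1.56 in Lip+ISO. Thra exceeded Thrb per length in all 12 libraries, by 2.07-fold to 4.71-fold.

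The libraries are bulk RNA, in which fewer cells of a type and less RNA per cell cannot be told apart. Summed adipocyte markers (10 genes) lay at 38900 to 48730 CPM in vehicle, 35220 to 46560 in ISO, 36640 to 43010 in Lip and 32490 to 42990 in Lip+ISO, overlapping in all groups. Of these 10, 2 passed downward in each ISO comparison, leptin (Lep) in both, where 13.9% and 15.8% of all genes passed downward. Of 8 tested macrophage markers, 5 passed upward in ISO vs vehicle and 2 in Lip+ISO vs Lip (12.3% and 11.5% of all genes), with sums of 50.6 to 64.0 CPM in vehicle, 97.3 to 145.8 in ISO, 53.0 to 58.6 in Lip and 62.2 to 109.0 in Lip+ISO. The calls of Emr1 in ISO vs vehicle and Csf1r in Lip+ISO vs Lip were near the threshold and held in 5 and 6 of 15 fits with libraries left out. Of 8 fibroblast and progenitor markers, 3 passed upward in ISO vs vehicle and 3 downward in Lip+ISO vs ISO (12.3% and 4.59% of all genes). Pdgfra was called lower in the latter, which held in 9 of 15 fits. Their sums were 325.8 to 579.9 CPM in vehicle, 643.0 to 853.7 in ISO, 450.2 to 453.1 in Lip and 391.2 to 540.2 in Lip+ISO. Endothelial markers (8 genes) summed to 118.7 to 221.3, 214.2 to 408.1, 62.5 to 197.9 and 85.0 to 249.7 CPM in that order of groups, with none passing. Mesothelial markers (6 genes) summed to 22.0 to 49.7 CPM in vehicle and 59.0 to 70.7 in ISO. They summed to 13.7 to 57.4 in Lip and 38.6 to 48.2 in Lip+ISO, so the ISO range lay highest. Of these 6 genes only Wt1 passed, called higher in both ISO comparisons (1.47 and 1.49 on the log2 scale). The median over the 6 was 1.16 in ISO vs vehicle but 0.08 in Lip+ISO vs Lip. Smooth muscle and pericyte markers (6 genes) summed to 197.5 to 313.8 CPM in vehicle and 178.0 to 281.5 in ISO. Their sums were 254.8 to 347.0 in Lip and 130.0 to 208.3 in Lip+ISO. Of these, 1 passed downward in Lip+ISO vs Lip, Acta2 (-1.31, called lower), where 15.8% of all genes did. No listed marker was at 0 in all libraries. Going from ISO to Lip+ISO, where Dio2 was higher, the ranges of the fibroblast and mesothelial sums lay wholly lower and those of the macrophage, endothelial and smooth muscle sums lay lower with an overlap. The part of these cell types in the changes of the 4 genes was not tested.

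ISO raised Dio2 along with 13 cAMP response genes. This list was chosen with earlier results of these data known, so its counts and medians describe it and test nothing. All 13 passed upward in ISO vs vehicle and all 13 in Lip+ISO vs Lip, where 12.3% and 11.5% of all genes did. Their median log2 fold change was 2.85 in the former, against 0.00176 over all genes, and 3.78 in the latter, against -0.00407. Dio2 exceeded that median in both. Among them were the nuclear receptor genes Nr4a1 (4.42 and 3.96), Nr4a2 (4.46 and 4.62) and Nr4a3 (6.71 and 6.52), the uncoupling protein gene Ucp1 (8.11 and 8.22), the coactivator gene Ppargc1a (3.79 and 4.04), the kinase gene Sik1 (3.49 and 3.68), the phosphodiesterase genes Pde4b (2.56 and 1.94) and Pde4d (2.77 and 4.09), Crem, the gene of a cAMP-induced transcription factor (2.85 and 3.78), Fos (2.40 and 1.38), Dusp1 (1.62 and 1.17), Rgs2 (1.52 and 2.11) and the clock gene Per1 (0.92 and 0.67).

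In Lip+ISO vs ISO 5 of these 13 genes passed, 4 upward, Pde4d (1.29), Crem (1.01), Ucp1 (0.86) and Rgs2 (0.85), and Fos downward (-1.46). Of all tested genes 4.36% passed upward there and 4.59% downward. The calls of Pde4d, Crem and Fos held in all 15 fits with libraries left out. That of Rgs2 (adjusted p = 0.0465) held in 5 of 15, with the highest adjusted p without the libraries numbered 1 (0.49, adjusted p = 0.296). That of Ucp1 (adjusted p = 0.0355) held in 7 of 15, with the highest without ISO replicate 3 (0.71, adjusted p = 0.14), and was lost in DESeq2 (adjusted p = 0.13). The interaction passed for Crem (0.93 ± 0.14, adjusted p = 0.00495) and Pde4d (1.31 ± 0.20, adjusted p = 0.00501), both in the direction of Dio2 and both smaller in size than its 2.52. Both calls were lost without the libraries numbered 2 (Crem 0.91, adjusted p = 0.18, and Pde4d 1.39, adjusted p = 0.0682) and without those numbered 3 (0.94, adjusted p = 0.0805, and 1.15, adjusted p = 0.218). The remaining 11 genes had interactions between -1.03 (Fos) and 0.59 (Rgs2) that did not pass. Of all tested genes 0.901% passed upward and 0.724% downward in the interaction.

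**Figure D3:**
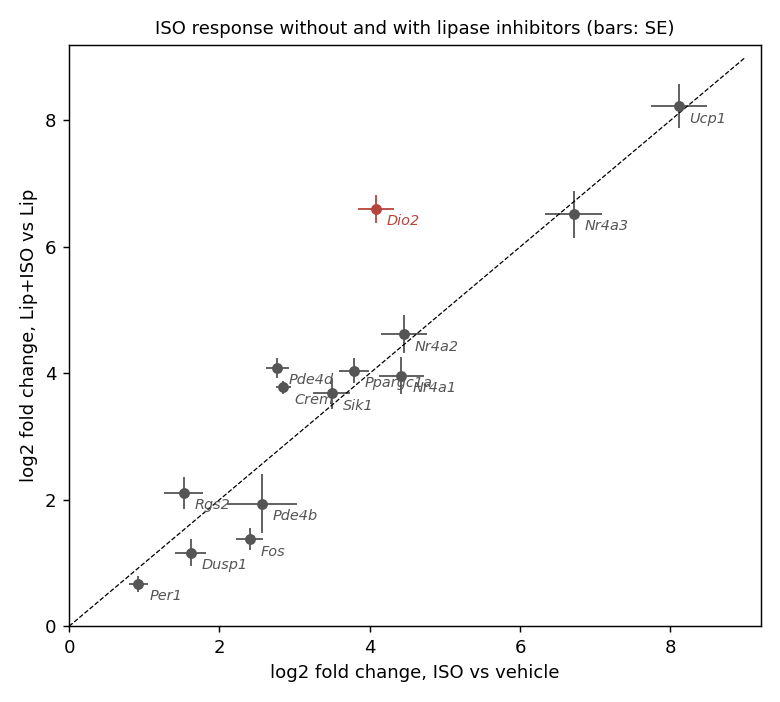
Log2 fold change in Lip+ISO vs Lip (vertical) against that in ISO vs vehicle (horizontal) for Dio2 and the 13 cAMP response genes, with SE bars and a dashed line of equal response. Dio2 (4.08 and 6.60) lies farthest above the line, followed by Pde4d (2.77 and 4.09) and Crem (2.85 and 3.78), while Fos (2.40 and 1.38) lies below it.

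Beyond the 4 genes, lists of the thyroid hormone pathway held 59 genes of the table, of which 50 were tested. In ISO vs vehicle 11 passed upward (22%) and 11 downward (22%), and in Lip+ISO vs Lip 13 upward (26%) and 12 downward (24%), with medians of -0.04 and -0.10. Over all tested genes the shares were 12.3% upward and 13.9% downward in the former and 11.5% and 15.8% in the latter. In Lip vs vehicle none passed by edgeR, while 1 passed upward and 1 downward by DESeq2 and 1 downward with the replicate block. In Lip+ISO vs ISO 8 passed upward (16%, against 4.36% of all genes) and 5 downward (10%, against 4.59%), and in the interaction 1 downward. Of these 61 calls, 0 were lost with the replicate block and 2 with DESeq2. In the 15 fits that left out a library or replicate number, 30 held throughout (12 of 22, 16 of 25, 2 of 13 and 0 of 1, in that order of tests). Of the comparisons of 2 groups, Lip+ISO vs ISO thus kept the smallest share. The pathway calls that held in fewer than 10 of the 15 fits were those of Dbp, Bcl3 and Trnau1ap (7 each, in ISO vs vehicle for the first and second and in Lip+ISO vs Lip for the third), and in Lip+ISO vs ISO those of Bcl3 (9), Ucp1 (7), Cpt1a (2) and Slc7a8 (1). The 9 genes in the table that were not tested had at most 22 counts in any library. They are Dio1, the transporter and binding protein genes Slco1c1, Slco1a4, Slc10a4, Crym, Ttr and Serpina7, and the thyroid genes Duox2 and Iyd.

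**Figure D4:**
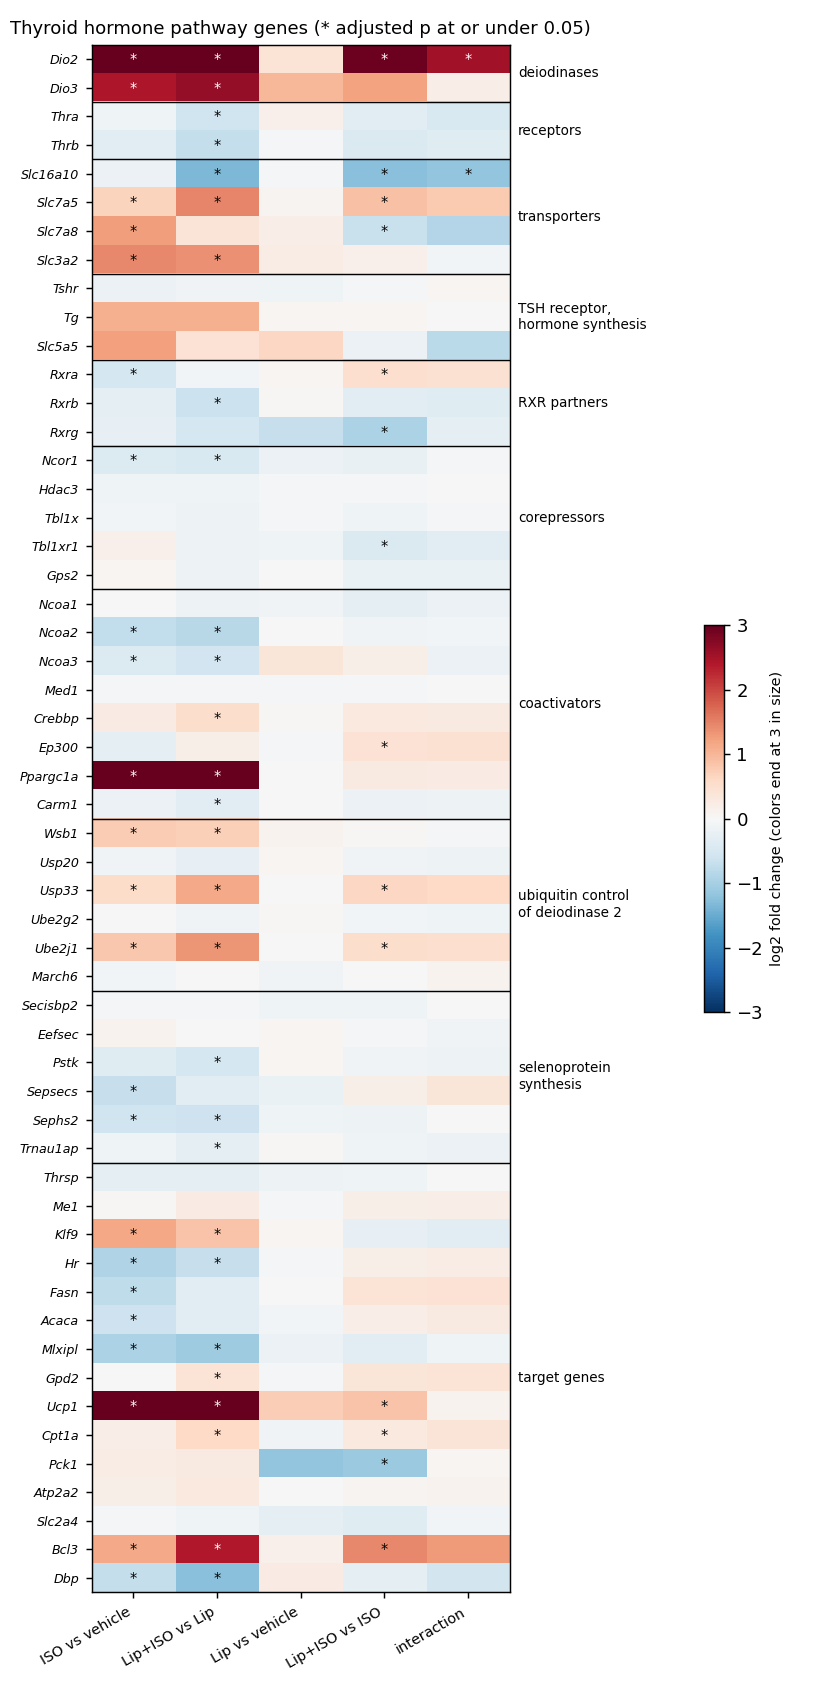
Log2 fold changes of the 4 genes and the 50 other tested pathway genes (rows, grouped by list) in the 5 tests (columns), red for higher and blue for lower, with a star where the adjusted p was at or under 0.05. Stars stand in the columns that involve ISO, none stands in Lip vs vehicle, and those of the interaction mark Dio2 and Slc16a10.

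Of the other deiodinases, Dio1 had 0 to 2 counts in each library. Dio3 was low but rose with ISO, with 4, 4 and 1 counts in vehicle (0.126, 0.168 and 0.0392 CPM), 17, 31 and 9 in ISO (0.749, 0.701 and 0.389 CPM), 6, 6 and 10 in Lip (0.206, 0.193 and 0.277 CPM) and 16, 46 and 48 in Lip+ISO (0.647, 1.71 and 1.91 CPM). Every library with ISO was above every library without it. The log2 fold change was 2.43 ± 0.60 in ISO vs vehicle (adjusted p = 0.0102) and 2.62 ± 0.52 in Lip+ISO vs Lip (adjusted p = 0.00214). Those calls were lost without the libraries numbered 1, 2 or 3 in the former (adjusted p = 0.0547, 0.0816 and 0.0617) and without those numbered 2 in the latter (adjusted p = 0.0648). The interaction of Dio3 was 0.19 ± 0.94 and did not pass. Per length, Dio2 was 1.04-fold to 3.53-fold Dio3 in vehicle, 0.739-fold to 1.55-fold in Lip, 3.46-fold to 9.74-fold in ISO and 11.97-fold to 34.3-fold in Lip+ISO.

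The transporters of the hormone went in different directions. Slc16a10 (MCT10), which carries the hormone and aromatic amino acids, had 93.3, 92.9 and 117.2 CPM in vehicle, 92.7, 86.8 and 91.3 in ISO, 88.4, 88.9 and 115.2 in Lip, and 32.5, 39.4 and 42.3 in Lip+ISO, so that the Lip+ISO libraries were all under 50% of the lowest in any other group. It fell by 1.36 ± 0.13 on the log2 scale in Lip+ISO vs Lip (adjusted p = 7.07e-06) and by 1.25 ± 0.13 in Lip+ISO vs ISO (adjusted p = 8.53e-05), and its interaction was -1.19 ± 0.18 (adjusted p = 0.00554), the reverse of that of Dio2. The interaction was lost without the libraries numbered 1 (-1.07, adjusted p = 0.0658) or 2 (-1.25, adjusted p = 0.133).

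The L-type amino acid transporters also carry thyroid hormone. Slc3a2, the heavy chain that they share, rose by 1.45 in ISO vs vehicle and 1.37 in Lip+ISO vs Lip on the log2 scale (adjusted p = 2.89e-06 and 2.69e-06). Slc7a5 (LAT1) rose by 0.68 (adjusted p = 0.00528, but 0.0533 without the libraries numbered 2) and 1.47 (adjusted p = 1.07e-05), and by 0.88 in Lip+ISO vs ISO (adjusted p = 0.00259). Its interaction was 0.80 ± 0.21 and did not pass (adjusted p = 0.0855). Slc7a8 (LAT2) rose by 1.26 in ISO vs vehicle (adjusted p = 0.000508), had 0.38 in Lip+ISO vs Lip (adjusted p = 0.178) and fell by 0.68 in Lip+ISO vs ISO (adjusted p = 0.0445). That last call held in 1 of 15 fits, the one without ISO replicate 2, and the change was -0.38 without ISO replicate 3 (adjusted p = 0.15).

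Tshr, the receptor of thyrotropin, is known in adipocytes and was well expressed, with means of 165.7 ± 9.87, 147.9 ± 22.0, 151.5 ± 20.3 and 141.1 ± 27.9 CPM in vehicle, ISO, Lip and Lip+ISO (SD, n = 3). It passed no test, with changes from -0.16 to 0.06. Genes of hormone synthesis were at most 1.21 CPM in any library, and Tg and Slc5a5, the ones tested, did not pass. The span of Tg overlaps that of Sla on the opposite strand, and nothing states that the counting used strand.

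Of 3 RXR partners, 1 passed downward in each ISO comparison (13.9% and 15.8% of all genes). In Lip+ISO vs ISO 1 of the partners passed upward and 1 downward (4.36% and 4.59% of all genes). Rxra, at 305.3 ± 32.6 CPM in vehicle the highest of them also per length, fell by 0.53 in ISO vs vehicle on the log2 scale (adjusted p = 0.00799) and was higher by 0.51 in Lip+ISO vs ISO (adjusted p = 0.0255). The first call was lost without the libraries numbered 2 (-0.56, adjusted p = 0.0589) or 3 (-0.46, adjusted p = 0.102). The second held in 10 of 15 fits and was lost without ISO replicates 2 (0.45) or 3 (0.43), without Lip+ISO replicate 3 (0.45), and without the libraries numbered 2 (0.48) or 3 (0.37), at adjusted p of 0.0906 to 0.317. Rxrb fell by 0.64 in Lip+ISO vs Lip (adjusted p = 0.000826). Rxrg fell by 0.96 in Lip+ISO vs ISO (adjusted p = 0.0132, but 0.0603 without Lip+ISO replicate 3, 0.0763 without the libraries numbered 2 and 0.113 without those numbered 3). Its Lip libraries (6.23 to 9.69 CPM) also lay below its vehicle libraries (10.7 to 14.8 CPM), a difference that did not pass by edgeR.

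Among 5 corepressor genes, Ncor1, a main corepressor of the receptors, fell by 0.42 in ISO vs vehicle and 0.46 in Lip+ISO vs Lip on the log2 scale, and Tbl1xr1 fell by 0.45 in Lip+ISO vs ISO. Hdac3, Tbl1x and Gps2 did not pass. Among 8 coactivator genes, Ppargc1a rose as given above, Ncoa2 fell by 0.74 and 0.83 and Ncoa3 by 0.41 and 0.57 in the ISO comparisons without and with the inhibitors. Carm1 (-0.34) and Crebbp (0.52) passed in Lip+ISO vs Lip and Ep300 (0.43) in Lip+ISO vs ISO, and Ncoa1 and Med1 passed in none. Of all tested genes 13.9% passed downward and 12.3% upward in ISO vs vehicle, and 15.8% and 11.5% in Lip+ISO vs Lip. In Lip+ISO vs ISO 4.59% and 4.36% passed in these directions. The spans of Ncor1 and Carm1 overlap a gene on the opposite strand by 16 and 784 bases. Genes that passed without being called, here and in the next paragraph, were named after their values had been seen.

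Of 6 genes for the ubiquitin control of type 2 deiodinase, 3 passed upward and none downward in both ISO comparisons, where 12.3% and 11.5% of all genes passed upward. Wsb1, the substrate adaptor of its ubiquitin ligase, rose by 0.76 and 0.71 on the log2 scale, Usp33, a deubiquitinase that reverses the mark, by 0.55 and 1.15, and the conjugating enzyme gene Ube2j1 by 0.82 and 1.33. The latter pair was also higher in Lip+ISO vs ISO (0.61 and 0.53). Of 6 genes for selenoprotein synthesis, which the TGA codons shown above depend on, none passed upward, and 2 passed downward in ISO vs vehicle and 3 in Lip+ISO vs Lip (13.9% and 15.8% of all genes). Sephs2, which makes the selenium donor, fell by 0.60 and 0.62, and Sepsecs, which makes selenocysteine on its tRNA, by 0.70 in ISO vs vehicle. Pstk (-0.52) and Trnau1ap (-0.28) fell in Lip+ISO vs Lip. These calls held in 11 and 7 of the 15 fits with libraries left out, and that of Trnau1ap was lost in DESeq2 (adjusted p = 0.0538). Secisbp2 and Eefsec, which bring the tRNA to the ribosome, did not pass.

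Genes known as thyroid hormone targets split. Of 15 tested, Thrsp included, 3 passed upward and 5 downward in ISO vs vehicle, 5 and 3 in Lip+ISO vs Lip, and 3 and 1 in Lip+ISO vs ISO. Of all genes 12.3% and 13.9%, 11.5% and 15.8%, and 4.36% and 4.59% passed in these directions. Ucp1, Klf9 (1.16 and 0.85) and Bcl3 (1.14 and 2.41) rose in both ISO comparisons, and Hr (-0.91 and -0.69), Mlxipl (-0.94 and -1.07) and Dbp (-0.71 and -1.25, its span overlapping Sphk2 on the opposite strand) fell in both. Pck1 fell by 1.11 in Lip+ISO vs ISO (adjusted p = 0.0174), a call that held in 11 of 15 fits with libraries left out. Its Lip libraries (379.3 to 600 CPM) also lay below its vehicle libraries (857.9 to 1311 CPM), a difference that did not pass by edgeR. The median over the 15 was 0.01 in ISO vs vehicle and 0.26 in Lip+ISO vs Lip, so the list did not move one way. Several of these genes also answer to cAMP or to other nuclear receptors.

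Thrsp, whose product acts in fatty acid synthesis, passed downward in the ISO comparisons only with the replicate block. Of 13 lipogenic genes, 7 passed downward and 1 upward in ISO vs vehicle (13.9% and 12.3% of all genes), and 5 downward and 1 upward in Lip+ISO vs Lip (15.8% and 11.5%), with medians of -0.58 and -0.33 beside -0.29 and -0.27 for Thrsp. Mid1ip1, the paralog of Thrsp, fell by 0.68 in both (adjusted p = 0.005 and 0.00396). Acacb, an acetyl-CoA carboxylase gene, fell by 1.21 and 0.75, and Srebf1, whose product drives lipogenic genes, by 0.76 and 1.24 on the log2 scale. The 95% intervals of Mid1ip1 and Thrsp in ISO vs vehicle overlapped, and the difference between the genes was not tested.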

How the data were processed

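The deposited table holds raw counts per gene, which the authors made from TruSeq2 libraries by alignment to mm9 with STAR 2.4.2a and counting over RefSeq genes with HOMER (1 read per position and length) and iRNA-seq. It also gives the counted length, used here for RPKM. The labels name ISO as the stimulus, and a legend of the study for these cells names SR-3420. The labels were followed. Members and gene lists were chosen with earlier results of these data known. Named genes are the 4 members, listed genes called in at least 1 test, every counted deiodinase, receptor, transporter and RXR gene, and, per member, the 5 tested genes with a mean of at least 5 CPM that correlated best with it. Some genes that this rule would name are not reported here, and the lists and their counts leave them out.

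Counts were tested in R 4.3.3 with edgeR 4.0.16 (filterByExpr, TMM factors 0.924 to 1.07, quasi-likelihood F-test, two-sided, 1 mean per group over all 12 libraries, Benjamini-Hochberg over 13543 genes). CPM and RPKM used TMM-scaled totals, and log2 CPM a prior count of 2. The totals limit precision by counting error, which is largest for Dio2 without ISO and for Dio3. Alternatives were DESeq2 1.42.0, other scalings and filters, a replicate block, only the groups compared, each library or replicate number left out, and Thra summed with Nr1d1. The steps were tested on simulated data.

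The labels number the replicates 1 to 3 in each group, and the methods of the study speak of 3 independent experiments. Deviations from the group means correlated between same-numbered libraries at 0.139 to 0.369 in ISO vs vehicle, Lip+ISO vs Lip and Lip vs vehicle, over 0.1 in every pair, so the numbers were taken to pair these. In Lip+ISO vs ISO the same-numbered r were 0.102, 0.311 and 0.0373, all positive but the last weak. Pairing belongs to the libraries, so numbers that pair the other groups would pair these too. The main tests used no block, and results with the block are given as an alternative. Where libraries of a number share an animal or a day is not stated, and p-values measure the spread between these libraries. No 2 libraries held the same values. Promoter windows are from RefSeq (GRCm38.p6).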

Additional observations from a re-analysis of the deposited data

Results flagged for a closer look

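The response to ISO differed with the inhibitors, by the interaction test of edgeR, in 5 of the genes described. It was larger for Dio2 (2.52 on the log2 scale, adjusted p = 0.00392), Pde4d (1.31, adjusted p = 0.00501) and Crem (0.93, adjusted p = 0.00495), and lower for Slc16a10 (-1.19, adjusted p = 0.00554). Pparg, an adipocyte marker and the gene of the main nuclear receptor of adipocytes, fell by 0.46 in ISO vs vehicle and had 0.13 in Lip+ISO vs Lip, an interaction of 0.58 (adjusted p = 0.0274). That call held in 4 of 15 fits with libraries left out, and the highest adjusted p, without the libraries numbered 3, was 0.33 (0.52). With all libraries it passed with the replicate block (0.58, adjusted p = 0.00622) and in DESeq2 (adjusted p = 0.00014). Groups of 3 are too small for a search for single libraries that stand apart.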

How the results depend on the processing

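Every direction and call of Dio2 held under each other scaling, filter, test and set of libraries, except the interaction without the libraries numbered 2, as given above. Its interaction spanned 2.33 to 2.78 over the fits with libraries left out. Without a replicate block, the receptor calls in Lip+ISO vs Lip lay near the threshold. With the block they passed at -0.60 (Thra, adjusted p = 0.00797) and -0.71 (Thrb, adjusted p = 0.00209). Thrb had -0.67 (adjusted p = 0.054) with DESeq2 size factors and -0.70 (adjusted p = 0.0776) when only these groups were fitted, and Thra -0.60 (adjusted p = 0.0558) in the latter, where fewer samples estimate the spread. With libraries left out, Thra there spanned -0.83 to -0.32 (10 of 15 fits passing) and Thrb -0.97 to -0.48 (5 of 15). Thrb spanned -0.59 to -0.18 in ISO vs vehicle (1 of 15 passing) and -0.28 to 0.089 in Lip vs vehicle. Thrsp spanned -0.26 to 0.013 in Lip+ISO vs ISO and -0.13 to 0.17 in the interaction, which was -0.047 with library totals alone. The cause was not tested.

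With the replicate number as a block, Thrsp passed in ISO vs vehicle (-0.29) and Lip+ISO vs Lip (-0.26), and no other call of the 4 genes changed. In Lip+ISO vs ISO the block moved the count of other pathway genes passing downward from 5 to 9. In the interaction it moved the count of those passing upward from 0 to 5. The genes called lower in the interaction went from 46 to 131 (92 with DESeq2). The genes called lower in Lip vs vehicle went from 3 to 6 with the block and with DESeq2.

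Counts of Thra summed with Nr1d1 gave 0.43 in ISO vs vehicle, -0.10 in Lip vs vehicle, -1.33 in Lip+ISO vs ISO and -1.24 in the interaction. By construction this sum follows Nr1d1, which has more counts. No summed counts enter the values of the report. With no minimum fold change, 1670 genes were higher and 1878 lower in ISO vs vehicle, 1562 and 2140 in Lip+ISO vs Lip, 1 and 6 in Lip vs vehicle, 590 and 621 in Lip+ISO vs ISO, and 122 and 98 in the interaction. Depth limits Dio2 in the groups without ISO and Dio3 in all groups.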

Other observations

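The genes whose log2 CPM over the 12 libraries was most like that of Dio2, by Pearson r among 9838 tested genes with a mean of at least 5 CPM, were Cd55 (0.995), Isy1 (0.993), Parm1 (0.993), Gabpb1 (0.992) and Nnmt (0.991). Cd55, a surface protein that limits complement, had means of 16.6 ± 1.44 (SD, n = 3), 103.7 ± 18.5, 17.0 ± 2.32 and 415.1 ± 139.9 CPM in vehicle, ISO, Lip and Lip+ISO, the order found for Dio2. Isy1 had 25.9 ± 1.31, 63.9 ± 4.63, 26.2 ± 0.843 and 139.8 ± 5.38 CPM in the same groups. The libraries fall into groups, so such an r mainly reflects group means. For Thra, Rin2 (0.918), Cela1 (0.907), Phtf1 (0.901) and Tead3 (0.896) were among the most alike. For Thrb they were Erbb2ip (0.946), Strn (0.941), Mina (0.94), Rbm28 (0.939) and Sox6 (0.938). For Thrsp they were Clmn (0.942), Tbc1d13 (0.936), Tpr (0.936), Ccser2 (0.918) and Clec16a (0.917).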
